A study of Mus musculus with 64 samples.

Results

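The 10 genes described here encode cyclic nucleotide phosphodiesterases, the enzymes that break down the second messengers cAMP and cGMP. They are Pde1a, Pde1b, Pde1c, Pde2a, Pde4a, Pde4b, Pde4d, Pde7b, Pde8b and Pde10a, chosen by name from the 27179 gene identifiers of the count tables and found by matching Entrez identifiers to mouse symbols. All 10 passed the filter on low counts, so every member enters every test, among 16776 genes tested in all. The study compared striatal RNA of 32 mice on a C57BL/6NJ background: 16 carried the Cyfip2 genotype N/-, labelled binge-resistant, and 16 the genotype N/N, labelled binge-prone, and each genotype had 8 males and 8 females. N is known as the form of Cyfip2 found in the C57BL/6N substrain, which differs from that of C57BL/6J by an amino acid, and by their labels all mice of both groups carried it, so no group without it was compared. The labels do not describe the minus allele. The mice were 82 to 84 days old, and striatal punches were taken on Day 24, straight after 5 min on an elevated plus maze. The labels give no diet or training group.

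Adenylyl cyclases make cAMP and guanylyl cyclases make cGMP, and phosphodiesterases end both signals. The projection neurons of the striatum, its GABAergic output cells, receive dopamine through receptors that raise or lower cAMP, and are known for high levels of several phosphodiesterases, Pde10a and Pde1b among them. The family members differ in what they cleave and in what switches them on: Pde1 enzymes are activated by calcium and calmodulin, Pde2a is stimulated by cGMP, Pde10a cleaves both messengers, and the Pde4, Pde7 and Pde8 enzymes are specific for cAMP.

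In the RefSeq annotation (GRCm38) the calcium-activated members were Pde1a at chr2:79834453-80196522 (-), Pde1b at chr15:103503034-103530056 (+) and Pde1c at chr6:56069798-56652510 (-). The members that cleave both messengers and are not activated by calcium were Pde2a at chr7:101421691-101512829 (+) and Pde10a at chr17:8525187-8986648 (+). The cAMP-specific members were Pde4a at chr9:21165700-21213248 (+), Pde4b at chr4:102087332-102607275 (+), Pde4d at chr13:108654177-109955969 (+), Pde7b at chr10:20397052-20725078 (-) and Pde8b at chr13:95024105-95250401 (-).

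Summed counts per mouse were 28.8 to 33.8 M (M, 1e6 counts), with a median of 31.2 M in N/- mice and 31.8 M in N/N mice, from 2 sequencing runs each. The lanes in the labels divide the mice into lane set 2 (6 N/- and 10 N/N mice) and lane set 1 (10 N/- and 6 N/N mice), so genotype and lanes were partly confounded and lane set was a term of the tests. Cyfip2 itself was lower in N/- mice, with a log2 fold change of -0.84 (SE 0.045, adjusted p 4.93e-15, quasi-likelihood test of edgeR). The 12 markers of projection neurons summed to 5570 to 11247 CPM (counts per 1e6 counts) in N/- mice and 8203 to 11765 CPM in N/N mice. These genes are defining for the labelled tissue and were present in every mouse. The 10 markers of cortical glutamatergic neurons summed to 446 to 1655 CPM in N/- mice and 504 to 1005 CPM in N/N mice. Mouse 3, an N/N mouse labelled female, had 36 Xist counts, against at least 27239 in the other mice labelled female, and 31 counts of the Y-linked Ddx3y, against up to 64 in the other mice labelled female. It was kept under its label, and genotype values without it are given for the members that moved most.

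Promoter sequences of 4 members are shown here because Pde1b, Pde10a and Pde7b varied together between mice and Pde1a varied in the opposite direction, as described further on. RefSeq (GRCm38.p6) gave 31 windows for the 10 genes, each the 250 bases before an annotated start, read 5′ to 3′ on the gene's strand. Capitals mark a GC box (GGGCGG, or CCGCCC on the other strand) in Pde1b and Pde10a. In Pde1a they mark the cAMP response element core TGACG, seen here as CGTCA on the other strand. The Pde7b window held neither. For Pde1a the third of 4 annotated starts is shown, the one with this core, and for the others the first listed. The windows are chr15:103502784-103503033 (+) for Pde1b, chr17:8801495-8801744 (+) for Pde10a, chr10:20548329-20548578 (-) for Pde7b and chr2:80038903-80039152 (-) for Pde1a.
Pde1b: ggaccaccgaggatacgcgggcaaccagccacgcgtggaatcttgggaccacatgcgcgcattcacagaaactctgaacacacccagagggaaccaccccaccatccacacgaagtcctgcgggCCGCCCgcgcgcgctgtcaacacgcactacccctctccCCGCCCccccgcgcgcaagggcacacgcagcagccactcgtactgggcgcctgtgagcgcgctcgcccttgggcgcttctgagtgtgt
Pde10a: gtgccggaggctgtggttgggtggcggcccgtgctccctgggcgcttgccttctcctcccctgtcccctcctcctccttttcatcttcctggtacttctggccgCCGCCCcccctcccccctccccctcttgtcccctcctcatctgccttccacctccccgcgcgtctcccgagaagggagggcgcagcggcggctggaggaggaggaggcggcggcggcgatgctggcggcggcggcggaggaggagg
Pde7b: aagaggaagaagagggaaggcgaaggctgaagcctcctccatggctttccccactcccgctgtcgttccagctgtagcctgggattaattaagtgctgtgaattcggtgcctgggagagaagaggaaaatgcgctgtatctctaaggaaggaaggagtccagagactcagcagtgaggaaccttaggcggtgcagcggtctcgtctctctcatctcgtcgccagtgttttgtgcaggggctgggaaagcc
Pde1a: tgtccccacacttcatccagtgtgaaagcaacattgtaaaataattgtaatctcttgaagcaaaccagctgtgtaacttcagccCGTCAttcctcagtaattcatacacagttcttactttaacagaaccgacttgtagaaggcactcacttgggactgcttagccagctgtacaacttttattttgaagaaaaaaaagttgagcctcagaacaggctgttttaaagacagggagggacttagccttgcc

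Each motif was searched on both strands in all 31 windows and in the 32851 RefSeq windows of the same length. The core TGACG, which the complete element TGACGTCA contains, was in 3 of the 31 windows (9.68%), 1 each of Pde1a, Pde4a and Pde4b, against 17.8% of all windows. The complete element TGACGTCA was in 0 of the 31 windows, against 1.55% of all. The GC box was in 7 of the 31 windows (22.6%), belonging to 5 of the 10 genes, against 32.7% of all. The AP-1 motif TGANTCA was in 1 window (3.23%), of Pde1c, against 6.75% of all. These matches describe the letters of the windows, and binding was not measured.

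The members spanned a wide range of levels. Scaled for length, as CPM per kb of the union of annotated exons, Pde1b was highest at 452 ± 64 (SD, n = 32 mice), a level that did not overlap that of the next gene in any mouse. Pde2a followed at 226 ± 21 and Pde10a at 202 ± 32, and these neighbours overlapped, with Pde2a above Pde10a in 30 of 32 mice. Pde7b stood alone at 50.7 ± 7.1, below every value of Pde10a and above every value of Pde8b. The next 4 genes formed a run of overlapping levels, with Pde8b at 25.5 ± 2.0, Pde1a at 22.6 ± 6.1, Pde4b at 20.8 ± 1.2 and Pde4a at 18.2 ± 1.9. Pde4d at 7.89 ± 0.72 and Pde1c at 2.49 ± 0.34 came last, each clear of its neighbours in all 32 mice. Pde1b made up 43.8 ± 1.9% of the summed length-scaled level of the 10 genes, Pde2a 22.1 ± 1.0% and Pde10a 19.5 ± 1.4% (SD, n = 32).

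The order in the middle depended on which length was used. With the longest annotated transcript in place of the exon union, Pde4b had 39.3 ± 2.4 CPM per kb and moved above Pde8b at 30.6 ± 2.4 and Pde1a at 26.6 ± 7.2, while Pde2a at 237 ± 22 and Pde10a at 236 ± 37 became nearly level. Which transcripts the counted reads came from was not measured.

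**Figure D1:**
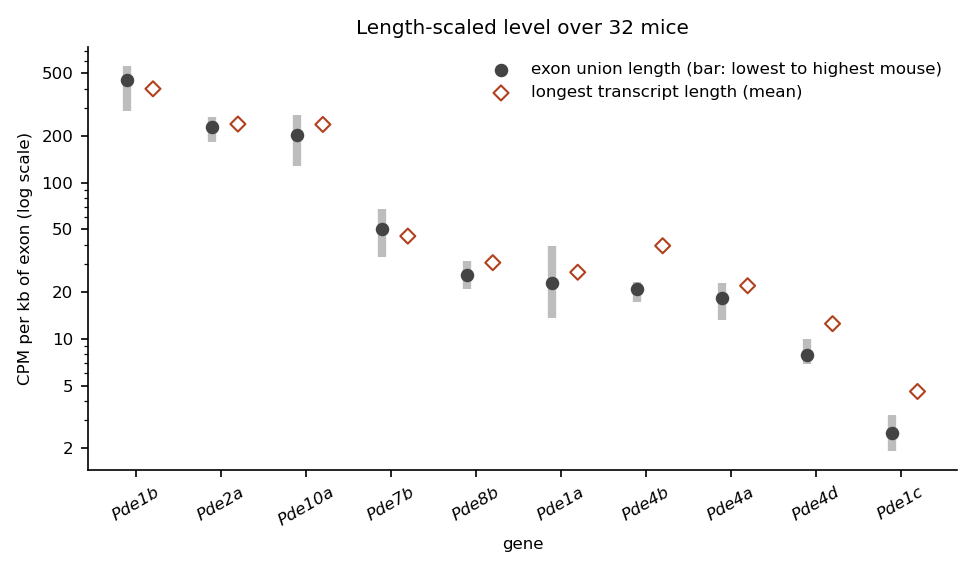
Length-scaled level (CPM per kb, log axis) of each phosphodiesterase transcript. Grey points are means over 32 mice with bars from the lowest to the highest mouse, using the exon union length, and open diamonds are means with the longest transcript: Pde1b is highest under both lengths, and Pde4b is the gene whose place shifts most, from 20.8 to 39.3 CPM per kb.

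The other phosphodiesterase genes were mostly lower in these samples. Of 14 further genes of the family or its photoreceptor subunits, 10 passed the filter on low counts. Pde6d, which encodes a prenyl-binding subunit and not a catalytic one, had 22.8 ± 2.2 CPM per kb, in the range of Pde1a and Pde4b. Among the catalytic ones Pde9a, a cGMP-specific enzyme, had 8.30 ± 0.67 CPM per kb, near Pde4d at 7.89 ± 0.72. Pde8a had 6.84 ± 1.08, Pde7a 3.67 ± 0.43 and Pde3b 2.89 ± 0.25, all with means above that of Pde1c. Pde6b, Pde6c, Pde6g and Pde6h, known from photoreceptors, did not pass the filter, with 101 to 173 counts summed over all 32 mice.

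The genotype comparison set the levels of these transcripts in N/- mice against those in N/N mice. No member passed the threshold: 0 of 10 had an adjusted p under 0.05 by edgeR's quasi-likelihood test or by DESeq2, in a comparison that called 0.0119% of all genes. At an unadjusted p under 0.05 there was 1 of 10, Pde2a, by either tool, against 6.46% of all genes. Of the members 7 had a log2 fold change below 0 (against 50.0% of all genes), and the median over the members was -0.078, against a median near 0 (-3.4e-05) over all genes. The values of each member follow by the type of enzyme.

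Pde1b, the calcium-activated enzyme for which the striatum is known, had 1067 CPM in the lowest, 1654 CPM in the median and 2060 CPM in the highest of 16 N/- mice. In the 16 N/N mice the lowest had 1505, the median 1767 and the highest 2070 CPM. The groups overlapped over most of their range, with 6 N/- mice below the lowest N/N mouse. The log2 fold change was -0.14 (SE 0.073, 95% interval -0.29 to 0.0097), with an adjusted p of 0.782, and without mouse 3 it was -0.11 (SE 0.075).

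Pde1a, a calcium-activated enzyme that prefers cGMP, was the most variable member, with a coefficient of variation of 27.1% over the 32 mice. The N/- mice had 67.4, 119 and 196 CPM (lowest, median and highest) and the N/N mice 73.8, 105 and 135 CPM. The N/- mice reached past the N/N mice at both ends, with 5 above the highest N/N mouse and 2 below the lowest. Its log2 fold change was 0.23 (SE 0.14, 95% interval -0.048 to 0.51) with an adjusted p of 0.800, the largest difference among the members and also the least precise, and without mouse 3 it was 0.19 (SE 0.14). Pde1c, a calcium-activated enzyme with high affinity for both messengers, had 30.8, 39.5 and 46.9 CPM in N/- mice and 31.1, 41.0 and 51.9 CPM in N/N mice, with a log2 fold change of -0.087 (SE 0.069, adjusted p 0.870).

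The balance of Pde1b against Pde1a differed widely between mice. Per kb, Pde1b exceeded Pde1a 7.47-fold to 41.0-fold in N/- mice (median 18.9) and 15.1-fold to 37.8-fold in N/N mice (median 22.2). Both the lowest and the highest ratio were in N/- females of lane set 1, mouse 4 and mouse 12.

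Pde2a, the enzyme that cGMP stimulates to break down cAMP, had 809 CPM in the lowest, 943 CPM in the median and 1145 CPM in the highest N/- mouse. The N/N mice had 921, 1048 and 1173 CPM. In 14 of 16 N/- mice Pde2a lay below the N/N median, and in 6 below the lowest N/N mouse. The log2 fold change was -0.11 (SE 0.044, 95% interval -0.20 to -0.022), with an unadjusted p of 0.0164 and an adjusted p of 0.767 by edgeR, and 0.0113 and 0.640 by DESeq2. Without mouse 3 it was -0.092 (SE 0.044, adjusted p 0.978).

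Pde10a, which cleaves both messengers, had 1156, 1857 and 2205 CPM in N/- mice and 1497, 1819 and 2474 CPM in N/N mice. The medians of the groups lay closer together than those of Pde1b or Pde2a, and 3 N/- mice fell below the lowest N/N mouse. Its log2 fold change was -0.084 (SE 0.084, adjusted p 0.907), and without mouse 3, the highest mouse, it was -0.037 (SE 0.081, adjusted p 0.997).

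Among the cAMP-specific enzymes, Pde7b had 159, 234 and 285 CPM in N/- mice and 212, 247 and 326 CPM in N/N mice, a log2 fold change of -0.082 (SE 0.073, adjusted p 0.888). Without mouse 3 the Pde7b value was -0.038 (SE 0.070, adjusted p 0.997). Pde8b, an enzyme with high affinity for cAMP, had 106, 126 and 147 CPM in N/- mice and 121, 133 and 160 CPM in N/N mice, a log2 fold change of -0.074 (SE 0.041, adjusted p 0.792). Without mouse 3 the Pde8b value was -0.046 (SE 0.038, adjusted p 0.978). For both genes the groups overlapped, with 2 N/- mice below the lowest N/N mouse for Pde7b and 4 for Pde8b.

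The 3 Pde4 genes encode the enzymes that the drug rolipram blocks. Pde4b was the steadiest member, with a coefficient of variation of 5.99%: N/- mice had 140, 172 and 186 CPM and N/N mice 153, 169 and 188 CPM. Its log2 fold change was -0.0098 (SE 0.034, 95% interval -0.078 to 0.058), which bounds a difference in either direction more tightly than for any other member. Pde4a had 72.8, 105 and 126 CPM in N/- mice and 83.1, 99.1 and 112 CPM in N/N mice, a log2 fold change of 0.085 (SE 0.054, adjusted p 0.809), or 0.066 (SE 0.055) without mouse 3. Of 16 N/- mice 4 lay above the highest N/N mouse for Pde4a. Pde4d had 47.2, 52.2 and 66.0 CPM in N/- mice and 45.7, 51.3 and 61.9 CPM in N/N mice, a log2 fold change of 0.074 (SE 0.045, adjusted p 0.804).

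**Figure D2:**
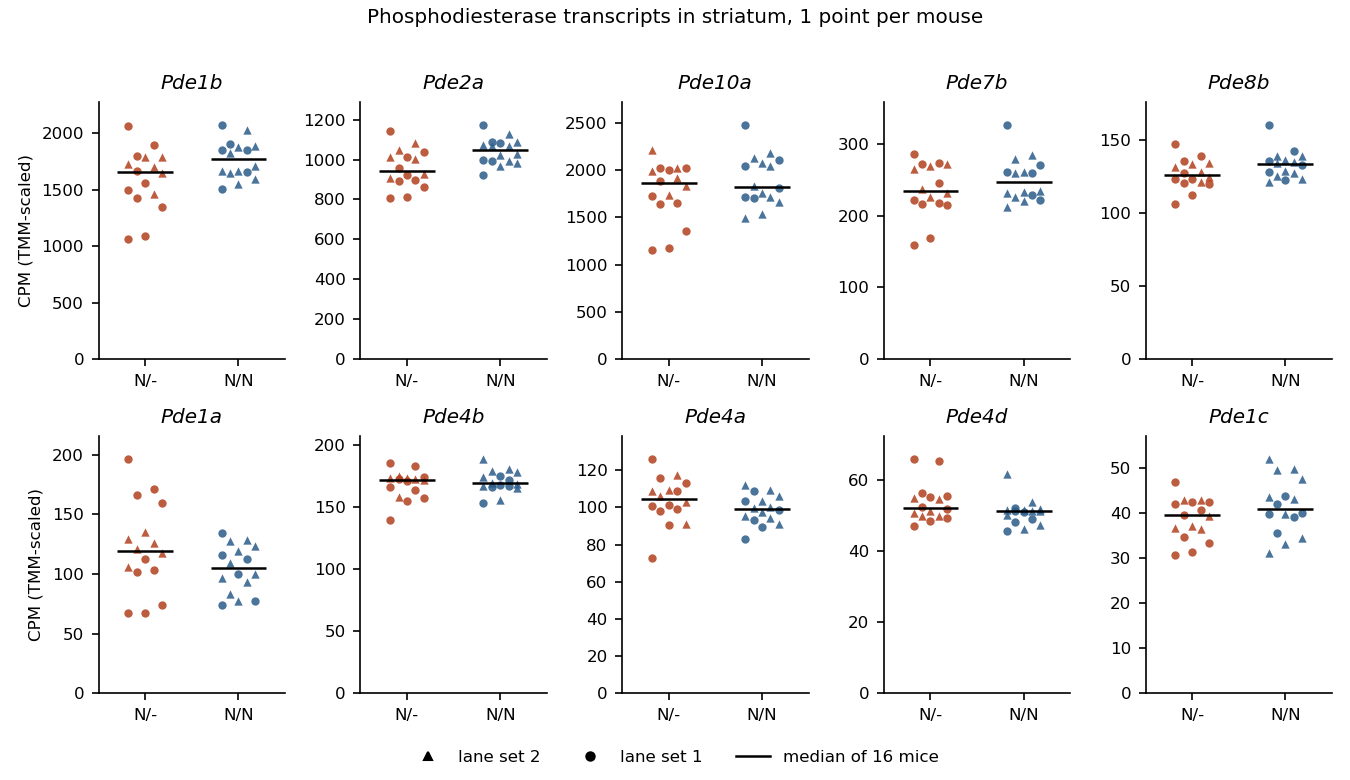
CPM (TMM-scaled, linear axis from 0) of each member in 16 N/- and 16 N/N mice, 1 point per mouse, with the median of each group as a line and lane sets as triangles (set 2) and circles (set 1). The groups overlap for all 10 genes, and 2 N/- mice of lane set 1 lie near the bottom for Pde1b, Pde2a, Pde10a, Pde7b and Pde8b.

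Marker genes of cell types were looked at beside these values. Of the 12 projection neuron markers 11 had a log2 fold change below 0 in N/- mice (median -0.15) and of the 10 cortical markers 9 had one above 0 (median 0.30), with 0 of either list past the adjusted threshold by edgeR. At an unadjusted p under 0.05 there were 3 of the projection neuron markers, all lower, and 2 of the cortical markers, both higher, against 6.46% of all genes. All 5 markers of D1 neurons (median -0.18), all 5 of D2 neurons (-0.15) and all 3 of cholinergic interneurons (-0.21) were below 0, and so were the 5 of endothelial and mural cells (-0.097) and the 5 of microglia (-0.038). Of these lists 3, 2, 2, 2 and 0 markers had an unadjusted p under 0.05, in that order, and 0 passed the adjusted threshold. Astrocyte markers had a median of 0.0082, oligodendrocyte markers of 0.011 and choroid plexus markers of 0.051. The projection neuron score, the mean centred log2 CPM of its 12 genes, averaged -0.076 ± 0.26 in N/- mice and 0.076 ± 0.14 in N/N mice (SD, n = 16 each). In bulk tissue fewer cells of a type and less RNA per cell cannot be told apart. With this score as a further term of the edgeR fit, the genotype difference of Pde2a was -0.043 (SE 0.022), of Pde1b -0.017 (SE 0.023) and of Pde1a 0.030 (SE 0.098), while Pde10a had 0.057 (SE 0.036) and Pde7b 0.043 (SE 0.027). All of these values are nearer 0 than without the score, and 0 of the 10 members had an unadjusted p under 0.05 in that fit, against 3.61% of all genes. Since the score comes from the same libraries and is itself lower on average in N/- mice, what part it has in the genotype values was not tested.

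The lane sets were also looked at apart. In the fit with a term for the interaction, the genotype log2 fold change in lane set 2 was 0.084 for Pde10a (SE 0.11), 0.037 for Pde7b (SE 0.10), -0.049 for Pde1b (SE 0.10) and -0.059 for Pde2a (SE 0.062). There 0 of 10 members passed the adjusted threshold by edgeR (0.0119% of all genes), 0 had an unadjusted p under 0.05 (2.50%) and 5 lay below 0 (51.0%). In lane set 1 it was -0.25 for Pde10a (SE 0.11), -0.23 for Pde1b (SE 0.10), -0.20 for Pde7b (SE 0.10) and -0.16 for Pde2a (SE 0.062). There 0 of 10 passed the adjusted threshold (0.0298%), 5 had an unadjusted p under 0.05 (8.94%) and 6 lay below 0 (48.1%). These 5 were Pde10a, Pde1b, Pde2a and Pde8b, all below 0, and Pde4d, above 0 at 0.14 (SE 0.063). With each lane set fitted alone, where the spread is its own, Pde10a had 0.080 (SE 0.084) in lane set 2 and -0.26 (SE 0.13) in lane set 1. Of the 5 members, 1 then had an unadjusted p under 0.05 in lane set 1, Pde2a (-0.17, SE 0.078, 5.86% of all genes), and in lane set 2 alone 1 of 10 members did, Pde1a (0.22, SE 0.10, 5.04% of all genes). In the fit with the interaction Pde1a was above 0 in both, at 0.21 (SE 0.19) in lane set 2 and 0.25 (SE 0.19) in lane set 1. In the same fit 7 of 12 projection neuron markers lay below 0 in lane set 2 (51.0% of all genes). In lane set 1 it was 12 of 12 (48.1% of all genes). Of these markers 0 had an unadjusted p under 0.05 by edgeR in lane set 2 (2.50% of all genes) and 11 in lane set 1 (8.94%). The difference between lane sets was tested as an interaction: 0 of 10 members passed the adjusted threshold by edgeR or DESeq2 (0.00% of all genes), and 1, Pde10a, had an unadjusted p under 0.05 by either tool, against 4.70% of all genes by edgeR. The interaction lay below 0 for 5 of 10 members (52.4% of all genes). For Pde10a the interaction was 0.34 (SE 0.16, unadjusted p 0.0445, adjusted p 0.997), with means of 1949 ± 162 CPM in N/- and 1842 ± 250 CPM in N/N mice of lane set 2, and 1661 ± 333 CPM in N/- and 1975 ± 296 CPM in N/N mice of lane set 1 (SD, n = 6, 10, 10 and 6). The 2 mice lowest in the projection neuron score, mice 4 and 9, are N/- females of lane set 1. Without mouse 3 the Pde10a interaction was 0.25 (SE 0.16, unadjusted p 0.130). Without mice 4 and 9, a choice made after seeing the data, the Pde10a interaction was 0.24 (SE 0.13, unadjusted p 0.0818), and the genotype difference over all remaining mice was -0.026 (SE 0.068) for Pde10a, -0.086 (SE 0.056) for Pde1b, -0.086 (SE 0.039, unadjusted p 0.0379, adjusted p 0.999) for Pde2a and 0.13 (SE 0.12) for Pde1a.

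**Figure D3:**
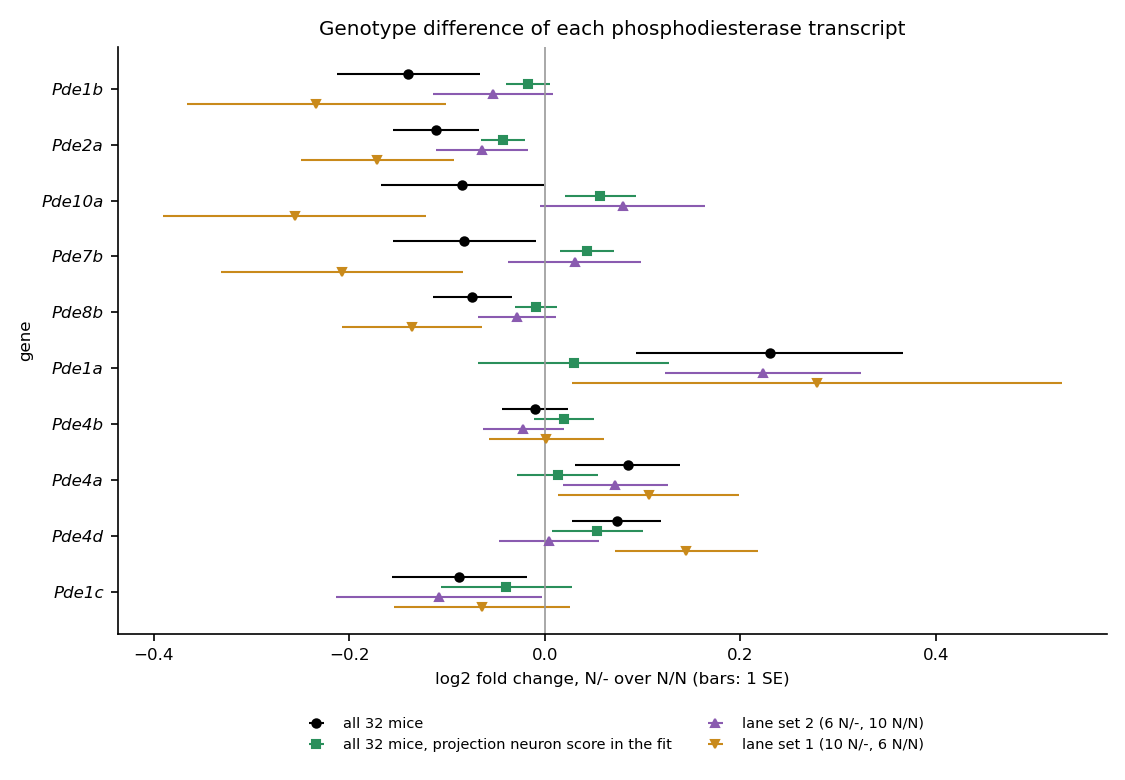
Log2 fold change of N/- over N/N mice for each member (bars, 1 SE) in all 32 mice, with the projection neuron score added to the fit, in lane set 2 alone and in lane set 1 alone. Pde1b, Pde2a, Pde10a, Pde7b and Pde8b lie further below 0 in lane set 1 than in all mice, and in lane set 2 Pde10a (0.080) and Pde7b (0.031) lie above 0 and Pde2a (-0.064) and Pde1b (-0.053) below it, and Pde1a is above 0 in both lane sets.

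Males and females were then compared. Of the 10 members 0 passed the adjusted threshold by edgeR or DESeq2 in the comparison of males with females, which called 0.107% of all genes, and 0 had an unadjusted p under 0.05 by either tool, against 5.36% of all genes. The log2 fold changes, male over female, ran from -0.049 for Pde1c (SE 0.067) to 0.020 for Pde4a (SE 0.053). Of the members 7 had a value below 0 (against 52.0% of all genes), with a median of -0.0074. Between lane sets 0 of 10 passed by edgeR or DESeq2 and 0 had an unadjusted p under 0.05 by either tool, where edgeR called 0.161% of all genes and 1839 of 16776 had an unadjusted p under 0.05. Of the 10 members 2 lay below 0 (52.7% of all genes), with values, set 2 over set 1, from -0.013 for Pde8b (SE 0.041) to 0.063 for Pde10a (SE 0.084).

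The genotype difference itself was compared between the sexes. In males and in females 0 of 10 members passed the adjusted threshold by edgeR (0.0119% of all genes in each), and 0 had an unadjusted p under 0.05 (3.50% of all genes in males, 3.73% in females). In males 6 of 10 lay below 0 (49.3% of all genes) and in females 7 of 10 (48.5%). The interaction, the genotype difference in males minus that in females, passed the adjusted threshold for 0 of 10 members by edgeR or DESeq2 (0.00% of all genes), with 0 at an unadjusted p under 0.05 by either tool, against 1.74% of all genes. The interaction lay below 0 for 1 of 10 members, Pde1a (49.8% of all genes). It was largest for Pde7b, at 0.16 (SE 0.14, 95% interval -0.13 to 0.46). Pde7b averaged 242 ± 25 CPM in N/- males against 243 ± 19 CPM in N/N males, and 230 ± 47 CPM in N/- females against 258 ± 39 CPM in N/N females (SD, n = 8 each). Without mouse 3 the Pde7b interaction was 0.090 (SE 0.14), and without mice 4 and 9 it was 0.033 (SE 0.12). Mice 3, 4 and 9, which hold the highest value and the 2 lowest values of this gene, are all labelled female.

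Levels were also compared between single mice. The level of 5 members, Pde1b, Pde2a, Pde7b, Pde8b and Pde10a, was lowest in mouse 9 and highest in mouse 3. Mouse 9 is an N/- and mouse 3 an N/N mouse, both labelled female, so this span also crosses the genotypes. Between these mice Pde10a differed 2.14-fold, Pde7b 2.06-fold, Pde1b 1.94-fold and Pde2a 1.45-fold. Pde1a differed 2.91-fold between its extremes, and its highest mouse, mouse 4, was the next to lowest for Pde1b and the highest for Pde4a and Pde4d. At a mean of 1264 to 57604 counts per mouse, counting error accounts for a coefficient of variation of at most 2.81% (Pde1c). The biological coefficient of variation in the fit was 25.7% for Pde1a and 6.63% for Pde4b, against a median of 10.1% over all genes.

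The members were then set against the marker scores across the 32 mice, after genotype, sex and lane set had been removed from both. No member is in either list. The terms removed were fitted over all 32 mice together. Values of r within a lane set can therefore still carry a genotype difference particular to that set. Of 20 relations (10 members, 2 scores) 17 had an adjusted p under 0.05 for Pearson's r, with two-sided permutation tests of 100000 resamples and Benjamini-Hochberg adjustment over the 20. With the projection neuron score 9 of 10 passed, down to an absolute r of 0.42, which 26.8% of 11795 other genes of at least 5 CPM also reached. With the cortical score 8 of 10 passed, down to 0.59, which 10.4% of these genes reached. This 0.59 is the smallest r among members that passed and not the smallest that would pass, since 0.42 passed with the projection neuron score. The share of genes that would pass with the cortical score was not counted and may be above 10.4%. The projection neuron score was followed closely by 5 members. Pearson's r was 0.98 for Pde1b (rho 0.96), 0.96 for Pde7b (rho 0.94), 0.94 for Pde2a (rho 0.92), 0.93 for Pde10a (rho 0.93) and 0.92 for Pde8b (rho 0.91). For each of these 5 the permutation p was 1e-05 for r and for rho, the smallest that the resamples can give, and the adjusted p was 2.5e-05 for r and 3.3e-05 for rho. Leaving out the 2 mice farthest from the median score gave r from 0.89 (Pde10a) to 0.97 (Pde1b), and within lane sets r was 0.86 to 0.98 in set 2 and 0.94 to 0.98 in set 1.

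Pde1a followed the cortical score instead. Its r was 0.96 (rho 0.96, permutation p 1e-05 for both, adjusted p 2.5e-05 for r), 0.96 without the 2 farthest mice, 0.90 in lane set 2 and 0.97 in lane set 1. Pde4a had an r of 0.65 with the cortical score (rho 0.60, permutation p 5e-05 and 0.00027, adjusted p 7.1e-05 and 0.00042), 0.70 without the 2 farthest mice, but 0.41 in lane set 2 (permutation p 0.118) against 0.72 in lane set 1 (permutation p 0.00115). Without mice 4 and 9 this r of Pde4a was 0.52 in lane set 2 and 0.48 in lane set 1. Pde1c had an r of -0.59 (rho -0.64, permutation p 0.00042 and 0.00014, adjusted p 0.00056 and 0.00031), with -0.64 without the 2 farthest mice, -0.75 in lane set 2 and -0.62 in lane set 1.

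Relations of the opposite sign were uneven between lane sets, though the difference in r between lane sets was not tested. The 5 members that followed the projection neuron score had an r of -0.66 to -0.75 with the cortical score (adjusted p at most 7.1e-05 for r). In lane set 2 these were -0.11 for Pde2a (permutation p 0.684), -0.24 for Pde1b (0.377), -0.35 for Pde7b (0.190), -0.46 for Pde10a (0.0742) and -0.46 for Pde8b (0.0750), so none had a permutation p under 0.05 there. In lane set 1 they were -0.73 to -0.86. Without mice 4 and 9, N/- females of lane set 1, Pde10a, Pde7b and Pde8b had -0.49, -0.43 and -0.55 in set 2. In set 1 they then had -0.49, -0.46 and -0.51. Pde1b and Pde2a then had -0.37 and -0.24 in set 2 and -0.70 and -0.64 in set 1. This choice was made after seeing the data. Pde1a had an r of -0.73 with the projection neuron score (rho -0.62, adjusted p 4e-05 and 0.00042), with -0.16 in lane set 2 (permutation p 0.553) and -0.87 in lane set 1. Pde4a likewise had -0.71 (rho -0.58, adjusted p 4e-05 and 0.00067), with -0.26 in lane set 2 (permutation p 0.329) and -0.85 in lane set 1. The scores themselves had an r of -0.74 with each other (rho -0.64, permutation p 1e-05 and 0.00013), -0.73 without the 2 farthest mice, -0.27 in lane set 2 and -0.85 in lane set 1.

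Weaker relations remained for the other members. Pde4b had an r of 0.54 with the projection neuron score (rho 0.54, adjusted p 0.00172 and 0.0019) and 0.44 without the 2 farthest mice, with 0.46 in lane set 2 (permutation p 0.0705) and 0.57 in lane set 1 (permutation p 0.0203). For Pde1c the r of 0.42 (adjusted p 0.0205) rested on the 2 farthest mice, without which it was 0.26, and the rho of 0.33 had an adjusted p of 0.0713. Within lane sets this r was 0.074 in set 2 (permutation p 0.788) and 0.70 in set 1 (permutation p 0.00273). The relations past the threshold did not include Pde4b with the cortical score (r -0.33, adjusted p 0.0748) or Pde4d with either score (r -0.24 with the projection neuron score, adjusted p 0.195, and 0.17 with the cortical score, adjusted p 0.363). As a description, a fit of both scores accounted for 96.2% of the remaining variance of Pde1b, 92.7% of that of Pde1a, 92% of Pde7b, 87.6% of Pde2a, 86.6% of Pde10a and 85.6% of Pde8b. For Pde4a it was 54.1%, for Pde1c 34.8%, for Pde4b 30.5% and for Pde4d 5.80%.

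**Figure D4:**
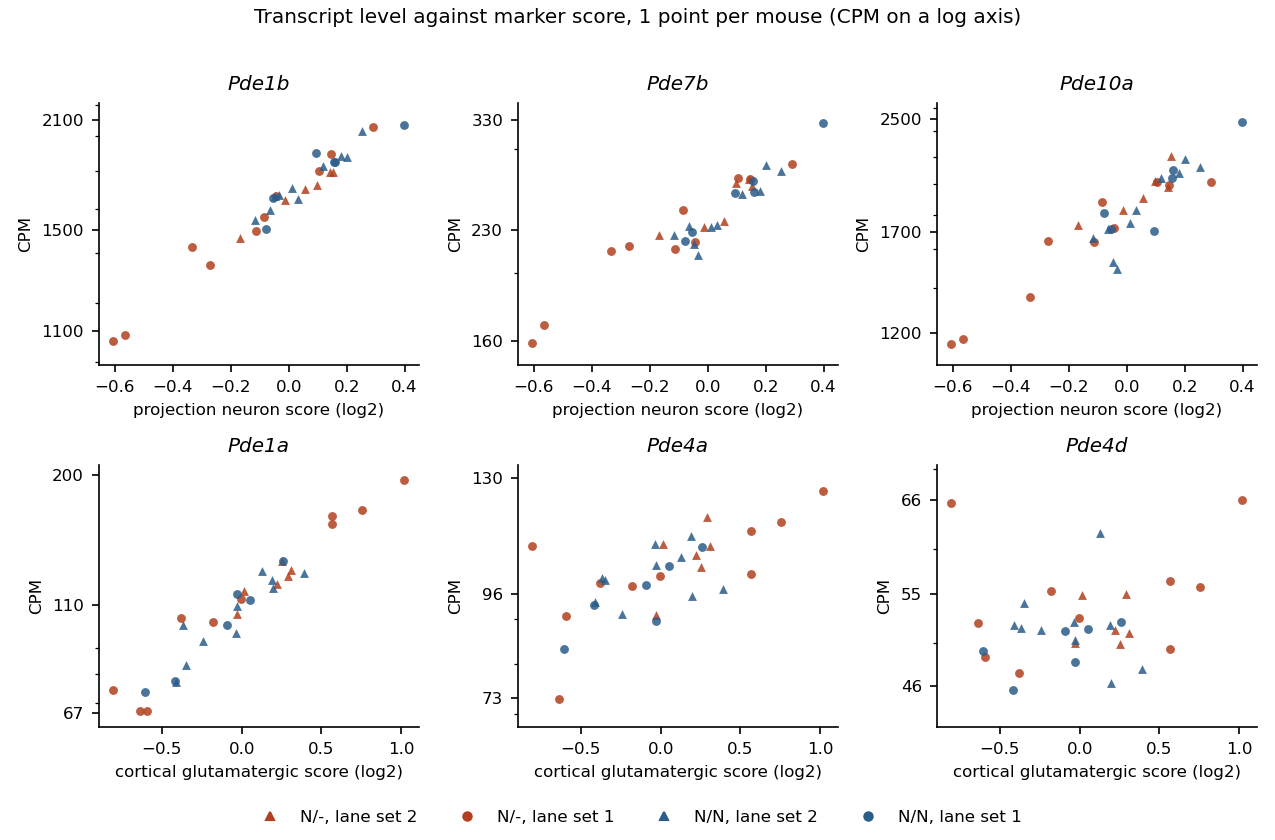
CPM (log axis) of 3 members against the projection neuron score and of 3 against the cortical glutamatergic score (mean centred log2 CPM), 1 point per mouse, coloured by genotype and shaped by lane set, before removing group terms. Pde1b, Pde7b and Pde10a rise along the projection neuron score and Pde1a along the cortical score, while Pde4d has 3 high mice at low, middle and high scores.

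Among the 45 pairs of members, 22 had a positive and 12 a negative r with an adjusted p under 0.05 (permutation tests as above, adjusted over the 45). The smallest absolute r among these was 0.37, which 32.8% of all pairs of the 11795 other genes also reached. The closest pairs were Pde8b with Pde7b (r 0.95, rho 0.93), Pde7b with Pde10a (r 0.94, rho 0.93) and Pde7b with Pde1b (r 0.93, rho 0.90), each with a permutation p of 1e-05 for r and rho (adjusted p 3.5e-05 and 4.5e-05). In lane set 2 they had 0.90, 0.95 and 0.87, and without the 2 farthest mice 0.94, 0.90 and 0.89. The most negative pair was Pde4a with Pde1b (r -0.76, rho -0.64, permutation p 1e-05 and 0.00016, adjusted p 3.5e-05 and 0.00048), at -0.68 without the 2 farthest mice, -0.30 in lane set 2 and -0.88 in lane set 1. Pde4a and Pde1a had a positive relation (r 0.69, rho 0.63, permutation p 2e-05 and 0.00012, adjusted p 6e-05 and 0.00042), with 0.62 without the 2 farthest mice, 0.45 in lane set 2 and 0.76 in lane set 1. All members of a mouse come from 1 library, so these pairs share its depth and tissue makeup.

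**Figure D5:**
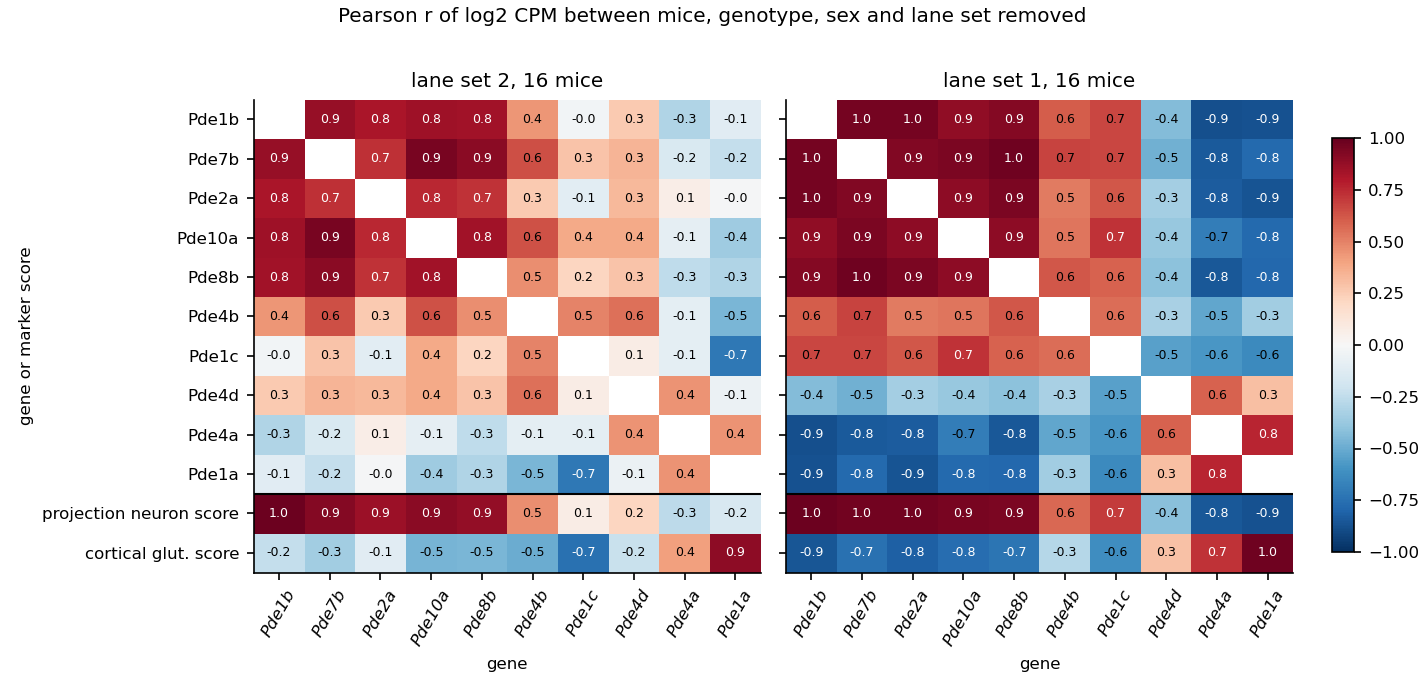
Pearson r of log2 CPM between members, and with the projection neuron and cortical glutamatergic scores, in 16 mice of lane set 2 and 16 of lane set 1, after removing genotype and sex. The block of Pde1b, Pde7b, Pde2a, Pde10a and Pde8b is positive in both, with at least 0.7 in every pair, while the negative relations of this block with Pde4a and Pde1a are strong in lane set 1 and weak in lane set 2.

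The genes most alike to each member over the 32 mice were found among 11816 genes with at least 5 CPM, by Pearson's r of the same residuals, as a description. For Pde1b these were Drd1 (r 0.98), Rasd2 (0.97) and Adora2a (0.97). Drd1 encodes the D1 dopamine receptor and Adora2a the adenosine receptor known from neurons with D2 dopamine receptors. Pde7b had Drd1 (0.96), Foxp1 (0.96) and Cacna2d3 (0.95), and Pde10a had Foxp1 (0.96), Zswim6 (0.96) and Cyld (0.95). Pde8b had Rragd (0.94), Cacna2d3 (0.93) and Drd1 (0.92), and Pde2a had Rasd2 (0.95), Smpd3 (0.94) and Mink1 (0.94). Foxp1 and Rasd2 are among the 12 markers of the projection neuron score.

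The other members had different neighbours. Pde1a was most alike to Ncald (r 0.97), Car10 (0.96) and Tbr1 (0.96), and Tbr1, a transcription factor of cortical glutamatergic neurons, is in the cortical list. Pde4a had Srrm4 (0.94), a neuronal splicing factor, Chd5 (0.93) and Slc4a8 (0.93). Pde4b had Efnb2 (0.84), Plk2 (0.82) and Cdh8 (0.79), Pde1c had Cntnap3 (0.83), Strip2 (0.81) and Spata13 (0.81), and Pde4d had Slc7a1 (0.79) and Cpeb3 (0.78).

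Genes that make, sense or anchor the cyclic nucleotide signal were tested in the same fit. By genotype 0 genes of any list passed the adjusted threshold by edgeR. Of 23 tested genes for the synthesis of cyclic nucleotides (adenylyl and guanylyl cyclases, G protein subunits and the neuronal nitric oxide synthase) 14 were above 0 and 9 below, with a median log2 fold change of 0.036 and 5 at an unadjusted p under 0.05, all above 0, against 6.46% of all genes. The smallest p-values were those of Gucy2g, a guanylyl cyclase, at 2.90 ± 1.46 CPM in N/- and 1.90 ± 0.54 CPM in N/N mice (log2 fold change 0.57, SE 0.19, adjusted p 0.763), and of Adcy8, a calcium-activated adenylyl cyclase, at 8.73 ± 2.63 CPM in N/- and 6.74 ± 1.40 CPM in N/N mice (0.31, SE 0.13, adjusted p 0.767). Of 24 effectors and targets 15 were above 0 and 9 below, with a median of 0.043 and 2 at an unadjusted p under 0.05 (6.46% of all genes). Ppp1r1b, the phosphatase inhibitor DARPP-32 that protein kinase A phosphorylates, was among these, at 1484 ± 295 CPM in N/- and 1708 ± 183 CPM in N/N mice (-0.19, SE 0.084, adjusted p 0.767). Ppp1r1b is also among the projection neuron markers.

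Of 15 regulators and scaffolds of phosphodiesterases, calmodulins and anchoring proteins among them, 10 were above 0 and 5 below by genotype, with a median of 0.027 and 0 at an unadjusted p under 0.05. Akap6 had the smallest p (0.053, SE 0.039, adjusted p 0.857), followed by Akap5 (-0.079, SE 0.062, adjusted p 0.874). Of the 10 other phosphodiesterase genes tested 5 were above 0 and 5 below, with a median of 0.010. Pde11a, an enzyme for both messengers, was the 1 gene at an unadjusted p under 0.05, at 0.77 ± 0.23 CPM in N/- and 0.57 ± 0.20 CPM in N/N mice (log2 fold change 0.44, SE 0.16, adjusted p 0.767). At this level it had 674 counts in all 32 mice together. Pde6a was next (-0.24, SE 0.20, adjusted p 0.878).

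By sex also 0 genes of these lists passed the adjusted threshold by edgeR. Mouse 3 was counted as female here, and the sex values of these lists were not looked at without it. Gucy1a2, a subunit of the nitric oxide receptor, had the smallest p, at 111 ± 14 CPM in males and 126 ± 11 CPM in females (log2 fold change -0.18, SE 0.052, unadjusted p 0.00175, adjusted p 0.413). Among the regulators and scaffolds 15 of 15 had a value below 0, against 52.0% of all genes, with a median of -0.035 and 3 at an unadjusted p under 0.05 (5.36% of all genes). Disc1 had the smallest p of these (-0.34, SE 0.15, adjusted p 0.923), at a low mean level of 0.91 CPM, with 912 counts in all 32 mice together. Akap9, an anchoring protein, followed at 283 ± 32 CPM in males and 310 ± 39 CPM in females (-0.13, SE 0.061, adjusted p 0.928). Gucy2c, a guanylyl cyclase, had -0.33 (SE 0.14, adjusted p 0.889), also at a low mean level of 0.45 CPM, with 459 counts in all 32 mice together. Of the effectors Rapgef3, an exchange factor that cAMP activates, had 0.14 (SE 0.056, adjusted p 0.851) and Prkar2a, a regulatory subunit of protein kinase A, 0.10 (SE 0.049, adjusted p 0.927). Of the other phosphodiesterases Pde3b had -0.079 (SE 0.045, adjusted p 0.979) and Pde3a 0.14 (SE 0.082, adjusted p 0.981). Between lane sets 0 genes of these lists passed the adjusted threshold by edgeR and 3 had an unadjusted p under 0.05. By list there were 1 of 23 synthesis genes, 1 of 24 effectors, 1 of 15 regulators and scaffolds and 0 of 10 other phosphodiesterases. This compares with 1839 of 16776 over all genes. Of the 3 listed genes Prkg2, a protein kinase that cGMP activates, had the smallest p (-0.29, SE 0.085, adjusted p 0.158).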

How the data were processed

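Striatal RNA of 32 mice was read as 50 bp single-end reads from stranded libraries, per the labels' protocols. The authors deposited whole-number counts per Entrez gene, 1 table per sequencing run. Per the submitters' processing notes, FastQC 0.11.3 and featureCounts (Subread) and the build mm10 are given, beside edgeR 3.8.6 and limma 3.22.7. The series text names TopHat and HTSeq instead, and gives 8 mice per genotype where the labels give 16, which were followed. The strand setting of the counting was not stated.

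The 2 runs of a mouse were summed (chi-square per degree of freedom 1.14 to 1.41 between runs), and the mouse was the replicate. Litters are not labelled, so p-values measure the spread between these mice. The 1904 identifiers without a symbol (0.766% of counts) stayed in. In R 4.3.3 with edgeR 4.0.16, filterByExpr kept 16776 of 23165 genes with at least 1 count. TMM scaling and the robust quasi-likelihood F test followed, with lane set, sex and genotype as terms and Benjamini-Hochberg adjustment over all genes (threshold 0.05). Each SE was the absolute log2 fold change over the root of its F statistic. Comparisons run N/- over N/N, male over female and set 2 over set 1. DESeq2 1.42.0 was an alternative. Scores and correlations used log2 CPM (prior count 2) with lane set, sex and genotype removed, and the shares of other genes at the same r were added after the relations were seen. Lengths are exon unions of GENCODE M21 basic (GRCm38). The edgeR fit was tested on simulated counts for the genotype term, and the other steps were not tested in this way.

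All 10 members are named. From each pathway list the genes past the threshold are named, or otherwise those with the smallest p (2 per list by genotype and sex, and 1 in all between lane sets), and for each member the 3 genes most alike. Some genes that this rule names are not reported here. The members and lists were chosen with earlier results of these data known.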

Additional observations from a re-analysis of the deposited data

Results flagged for a closer look

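The level of Pde4d stood out in 3 mice. Within each group of 8 mice (genotype by sex), the gap between the extreme mouse and its nearest neighbour was divided by the range of the group, and the value for Pde4d passed the 95% limit of 0.526 at the top of 3 of the 4 groups. Mouse 4, an N/- female, had 66.0 CPM, while the other 7 N/- females had 47.2 to 55.7 CPM. Mouse 2, an N/- male, had 65.5 CPM, while the other N/- males had 48.6 to 56.3 CPM. Mouse 31, an N/N female, had 61.9 CPM, while the other N/N females had 45.7 to 52.1 CPM.

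The 2 sequencing runs of each mouse gave alike values, before TMM scaling 64.9 and 65.5 CPM in mouse 4, 66.4 and 65.6 CPM in mouse 2, and 60.3 and 60.4 CPM in mouse 31. Their cortical scores were 1.02, -0.81 and 0.13, so these mice lie at both ends and near the middle of that score. Mice 4 and 2 are in lane set 1 and mouse 31 in lane set 2. Chance marks about 1 group in 20 by this rule, and 40 groups were tested over the 10 members. No member was marked for a difference of the genotype effect between sexes or between lane sets.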

How the results depend on the processing

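No member passed the adjusted threshold in any of the 5 comparisons (genotype, sex, lane set and both interactions) under any alternative run. By genotype the members with an unadjusted p under 0.05 were 0 with the projection neuron score in the fit (3.61% of all genes), 2 without the lane set term (8.23%), 4 without mouse 12 (9.31%) and 1 in each of the other settings (4.00% to 6.53%). That 1 was Pde1a in lane set 2 alone, Pde4d under the cage block and Pde2a in the rest. Over the 12 alternative settings the genotype log2 fold change kept its sign for 7 of the 10 members. With the projection neuron score it turned to 0.057 for Pde10a, 0.020 for Pde4b and 0.043 for Pde7b. In lane set 2 alone it was 0.080 for Pde10a and 0.031 for Pde7b, and in lane set 1 alone 0.0014 for Pde4b. With the cortical score it was 0.0038 for Pde4b, and without mice 4 and 9 it was 0.0019 for Pde4b. Cage served as the replicate block in the 21 mice of 10 cages with both genotypes, and there it was 0.0097 for Pde10a, 0.016 for Pde4b and -0.067 for Pde2a (SE 0.048), which lost its unadjusted p under 0.05 (0.185), while Pde4d gained one at 0.089 (SE 0.041, unadjusted p 0.0442). In that fit 0 members passed the adjusted threshold.

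The 17 relations to the marker scores stayed at 17 with a prior count of 0.5, without mouse 3 and without mouse 12, and were 16 without mice 4 and 9, where r of Pde1c with the projection neuron score was 0.20 (adjusted p 0.327). There r of Pde4d turned to 0.079 with the projection neuron score and -0.15 with the cortical score. The settings without mice 4 and 9 and with the longest transcript were chosen after seeing the data.

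The cause of these shifts was not tested. Replicate numbers in the labels name mice and do not pair them. Depth limits little here, since the lowest member averaged 1264 counts per mouse.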

Other observations

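The 10 other phosphodiesterase genes that passed the filter were set against the same scores after the relations of the members had been seen, as 20 further relations with adjustment over these 20. By Pearson's r, 3 had an adjusted p under 0.05, against 17 of 20 for the members. Of 11795 other genes 26.8% reached the smallest r called for a member with the projection neuron score, and 10.4% with the cortical score. These are not the shares that would pass the threshold, which were not counted. The sets differ in level, with means down to 0.24 CPM (Pde6a) here and 40.1 CPM (Pde1c) among the members. The members were also chosen with earlier results known, so these counts do not show a trait particular to them. Pde3a, an enzyme that cGMP inhibits, had an r of -0.49 with the cortical score (rho -0.57, permutation p 0.00372 and 0.00093, adjusted p 0.0248 and 0.0129), with -0.51 without the 2 farthest mice, -0.66 in lane set 2 and -0.49 in lane set 1. Pde5a, a cGMP-specific enzyme, had an r of 0.63 with the cortical score (rho 0.55, permutation p 0.00014 and 0.00129, adjusted p 0.0028 and 0.0129) and of -0.52 with the projection neuron score (rho -0.40, permutation p 0.00217 and 0.0241, adjusted p 0.0217 and 0.161). Both relations of Pde5a were strong in lane set 1 (0.85 and -0.76) and had the other sign in lane set 2 (-0.13 and 0.17). The broadly expressed Pde7a, Pde8a and Pde9a had an r between -0.26 and 0.11 with either score, none past the threshold.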
